A study of Homo sapiens with 30 samples.

Results

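The late transcriptional response to AZD8186, an inhibitor of the PI3Kβ and PI3Kδ isoforms, was analysed after 24 h of treatment in 4 cell lines of diffuse large B-cell lymphoma (DLBCL). All libraries labelled 24 h were taken, which are 8 of the 30 RNA-sequencing libraries of the series. HT and K422 were derived from germinal center B-cell-like (GCB) lymphomas and OCI-Ly10 and TMD8 from activated B-cell-like (ABC) lymphomas. From each line there is 1 library after 0.5 µM AZD8186 and 1 DMSO control, so that the libraries form 4 pairs. The series' design text calls the controls untreated, whereas the sample labels name DMSO. All 4 lines were chosen by the study as sensitive to AZD8186, and each combination of line, treatment and time was sequenced once. No source mentions separate cultures, and the p-values therefore describe the spread among these libraries alone. In the fits of the 8 libraries that spread holds the difference in response between lines as well as technical spread. In the fits of all 30 libraries it may be technical.

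PI3K produces a membrane lipid that recruits and activates the kinase AKT. AKT keeps FOXO transcription factors out of the nucleus and stimulates mTORC1, which promotes ribosome production, glycolysis and the synthesis of lipids and proteins. In B cells PI3K acts downstream of the B-cell receptor, whose signal is passed on by CD79A and CD79B and also reaches the MAP kinase and NF-κB pathways.

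The summed level of 8 B-cell markers was 3620 to 6610 TPM (transcript abundance scaled to transcript length, on a per-million scale) in the 8 libraries. Markers of the GCB subtype summed to 433 to 622 TPM in HT and K422 and to 27.1 to 52.6 TPM in OCI-Ly10 and TMD8, and those of the ABC subtype to 13.0 to 26.8 and 929 to 1760 TPM, so that the labelled subtypes did not overlap in either. Of markers of other cells, 5 of 10 for T cells, 8 of 10 for myeloid cells and 9 of 10 for stroma and endothelium stayed under 1 TPM in every library, and 2 T-cell genes, CD3D and CD3G, were at 64.9 to 109 TPM in K422 with either treatment. K422 also held DCN, a stromal proteoglycan gene, at 98.1 TPM under DMSO and 187 TPM under AZD8186. The summed T-cell markers were at 1.80 to 184 TPM under DMSO and 1.11 to 175 under AZD8186, the myeloid markers at 2.04 to 32.7 and 3.63 to 29.8, and the stromal markers at 0.22 to 98.1 and 0.36 to 187. LMO2, a GCB marker, was at 16.4 to 35.4 TPM in TMD8 and at most 0.27 TPM in the other lines. The part of these cells' genes in the results was not tested. The total of the expected counts was 16877525 to 23579029 per library (median 19618642). Genes of cytosolic ribosomal proteins took more of the counts under AZD8186 than under DMSO in each line, namely 17.7% against 16.1% in HT, 16.6% against 11.6% in K422, 24.5% against 17.7% in OCI-Ly10 and 23.3% against 17.7% in TMD8. No 24 h library was a copy of another, as at most 4.34% of the tested genes had equal counts in 2 libraries.

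The first question was which genes responded alike in all 4 lines. A total of 8 genes rose and 0 fell by edgeR's quasi-likelihood test on the 8 libraries, with the cell line as a block and the difference between lines as error (adjusted p under 0.05, 11486 genes tested, 0.0697% called higher and 0% lower). They include CD79B and CD37, which encode membrane proteins of B cells, and SLAMF6, which encodes a receptor of the SLAM family. Levels below are counts on a per-million scale after TMM scaling (CPM), which are not scaled to gene length.

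CD79B, which encodes the signaling chain Igβ of the B-cell receptor (chr17:63928740-63932354, GRCh38, minus strand, GENCODE release 29), went from 578 under DMSO to 1070 CPM under AZD8186 in HT, from 502 to 1190 in K422, from 345 to 810 in OCI-Ly10 and from 208 to 498 in TMD8. Every line was higher under AZD8186, although HT under DMSO was above TMD8 under AZD8186. The log2 fold change was 1.15 (SE 0.10, adjusted p = 0.0292). CD37, a tetraspanin of mature B cells (chr19:49335171-49343335, plus strand), went from 459 to 768 CPM in HT, 725 to 1400 in K422, 671 to 1590 in OCI-Ly10 and 608 to 1460 in TMD8. Its lowest AZD8186 library lay above its highest DMSO library, which held for 0.470% of the tested genes (and the reverse for 0.348%). Its log2 fold change was 1.05 (SE 0.12, adjusted p = 0.0379). SLAMF6 (chr1:160485030-160523262, minus strand) went from 5.62 to 15.2 CPM in HT, 9.99 to 35.2 in K422, 1.25 to 2.92 in OCI-Ly10 and 0.575 to 1.57 in TMD8, and was thus a gene of higher level in the GCB lines that was higher under AZD8186 in all lines (log2 fold change 1.52, SE 0.17, adjusted p = 0.0379).

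KIAA0040 (chr1:175156987-175192999, minus strand) went from 72.0 to 163 CPM in HT, 157 to 450 in K422, 146 to 318 in OCI-Ly10 and 174 to 340 in TMD8, which is 1.2 on the log2 scale (SE 0.11, adjusted p = 0.0292). TRAPPC6A, a subunit of a complex that tethers transport vesicles (chr19:45162928-45178237, minus strand), went from 28.2 to 55.1 CPM in HT, 22.4 to 68.1 in K422, 70.9 to 145 in OCI-Ly10 and 24.7 to 59.3 in TMD8 (1.22, SE 0.12, adjusted p = 0.0305). The log2 ratios of the 4 lines ran from 0.97 to 1.52 for KIAA0040 and from 0.97 to 1.6 for TRAPPC6A. As the difference between lines is the error of this test, it more readily calls genes with similar ratios. C6orf48, which hosts small nucleolar RNAs (chr6:31834608-31839766, plus strand), went from 154 to 277, 41.5 to 103, 66.5 to 158 and 95.3 to 168 CPM in HT, K422, OCI-Ly10 and TMD8 (1.05, SE 0.11, adjusted p = 0.0379). IQSEC1, an exchange factor of the ARF6 GTPase (chr3:12897220-13283281, minus strand), went from 11.1 to 18.4, 6.69 to 11.8, 249 to 508 and 238 to 395 CPM in the same order (0.83, SE 0.10, adjusted p = 0.0379). PLAC8 (chr4:83090048-83137075, minus strand) went from 44.6 to 120 CPM in OCI-Ly10 and from 26.7 to 81.2 in TMD8 but was at 0 under DMSO and at 0.0441 and 0.0526 CPM under AZD8186 in HT and K422, so that its call (1.53, SE 0.15, adjusted p = 0.0305) describes the ABC lines. By the exact permutation test of the signs of 4 log2 ratios no single gene can reach a two-sided p below 0.125.

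**Figure D1:**
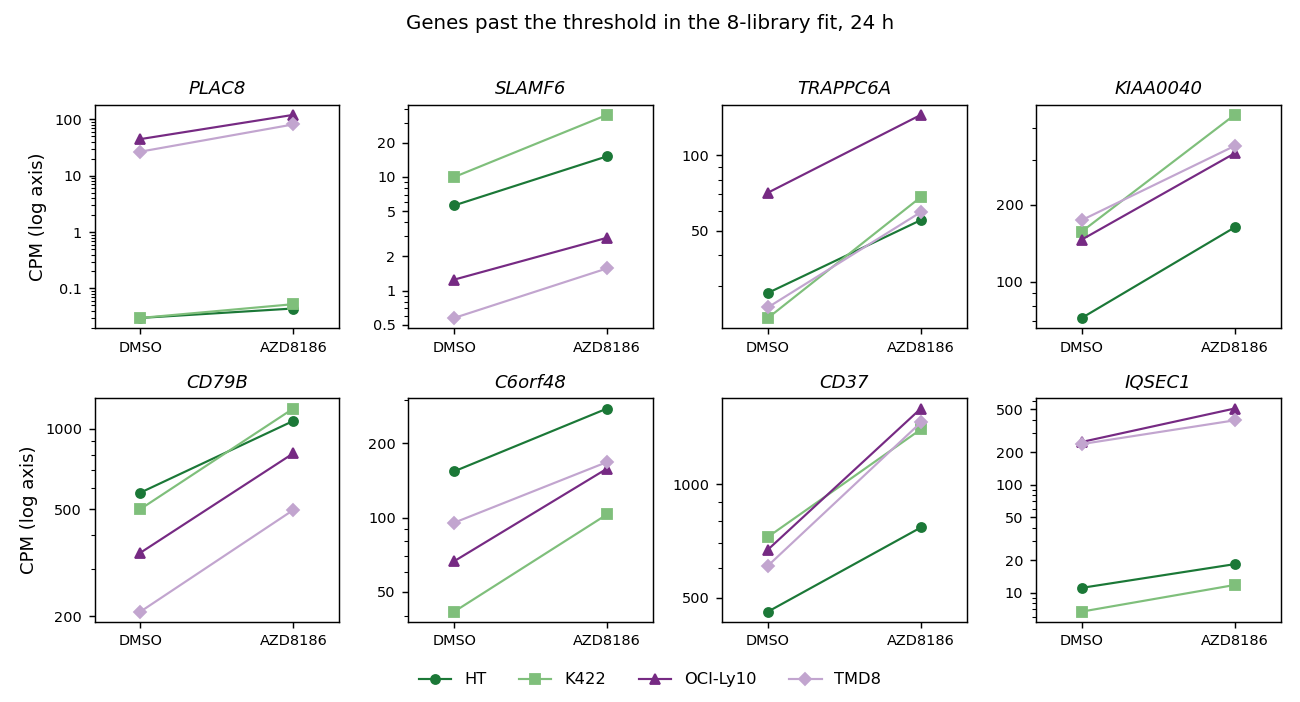
Levels of the 8 genes that passed the threshold, in CPM on a log axis, in the DMSO and the AZD8186 library of each of the 4 cell lines (1 point is 1 library, lines join the pair, 0 CPM is drawn at 0.03). Every pair rises, and PLAC8 in HT and K422 stays near 0.

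All 8 calls remained without K422, 1 of them without HT and 0 without OCI-Ly10 or TMD8. Other tools called more genes from the same libraries, namely 374 lower and 557 higher by DESeq2 and 19 lower and 64 higher by limma-voom, and 2671 genes had an unadjusted p under 0.05 in edgeR. A total of 17.2% of the genes were higher in all 4 pairs and 14.3% lower.

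The second estimate of the 24 h response came from a fit of all 30 libraries, in which each line has its own response and the error is taken from how far the 15 pairs depart from the effects of line and time. It estimates the average over these 4 lines and does not count differences between their responses as error. Here 1922 genes (17.0% of 11286) were higher and 1638 (14.5%) lower at 24 h, including all 8 genes above. The number depended on K422, without which 863 were higher and 543 lower. The 30-library fit is used below to count members of gene lists, beside these shares.

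Factors of B-cell and plasma cell fate were higher at 24 h. Of 31 tested members 18 were higher and 1 lower in the 30-library fit, 14 were higher in all 4 pairs, and their median log2 fold change was 0.41 against 0.02 over all genes. IKZF3, the transcription factor Aiolos, went from 175 to 259 CPM in HT, 147 to 259 in K422, 177 to 360 in OCI-Ly10 and 161 to 222 in TMD8, with no overlap between the treatments (log2 fold change 0.72, SE 0.11, adjusted p = 0.0631 over the 8 libraries and 1.12e-05 over 30). IRF8, a transcription factor of germinal center B cells, went from 141 to 184, 252 to 592, 75.3 to 159 and 21.3 to 49.4 CPM in HT, K422, OCI-Ly10 and TMD8 (0.98, SE 0.15, adjusted p = 0.0631 and 1.12e-05). TNFRSF17, which encodes the receptor BCMA, was low in all lines and went from 1.77 to 3.17, 4.26 to 11, 3.75 to 14 and 4.89 to 12.6 CPM (1.40, SE 0.20, adjusted p = 0.0589 and 0.00101).

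Components of the B-cell receptor and its co-receptors were mixed. Of the 31 members in the 30-library fit 12 were higher and 3 lower, with a median of 0.27 over 32 members in the 8-library fit and medians of 0.07 in HT, 0.05 in K422, 0.29 in OCI-Ly10 and 0.45 in TMD8. CD79B and CD37 were among the higher members. FCRL3, an inhibitory receptor of the Fc receptor-like family, went from 3.30 to 9.63 CPM in K422, 25.2 to 51.5 in OCI-Ly10 and 28.8 to 73.6 in TMD8, with 0.214 and 0.176 CPM in HT (1.24, SE 0.17), and passed neither fit (adjusted p = 0.0589 and 0.171). Class II antigen presentation genes differed between lines, with a median of 0.06 in HT, -0.13 in K422, where 9 of 13 were lower, 0.34 in OCI-Ly10 and 0.56 in TMD8, where all 13 were higher. In the 30-library fit 4 were higher and 0 lower. The 3 members higher in all 4 pairs were HLA-DMA (log2 fold change 0.44), HLA-DPB1 (0.57) and HLA-DOA (0.58), which passed the 30-library fit (adjusted p = 0.00586, 0.000229 and 0.00535).

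FOXO targets and feedback genes of PI3K were higher. This was 23 of 34 members (1 was lower), 17 of them higher in all 4 pairs, with a median log2 fold change of 0.72. The line medians were 0.69 in HT, 1.25 in K422, 0.69 in OCI-Ly10 and 0.24 in TMD8. PIK3IP1, which encodes a membrane protein that restrains PI3K, went from 3.48 to 13.4 CPM in HT, 6.19 to 42.1 in K422 and 0.818 to 2.92 in OCI-Ly10 but from 0.383 to 0.285 in TMD8 (adjusted p = 4.72e-05 over 30 libraries and 0.0794 over 8). TSC22D3, the glucocorticoid-induced leucine zipper, behaved alike, with 109 to 207, 99.9 to 342, 1.59 to 8.42 and 0.240 to 0.143 CPM (adjusted p = 2.35e-05 and 0.0846). BCL2L11, which encodes the pro-apoptotic protein BIM, was higher in every line, from 150 to 232 CPM in HT, 85.4 to 109 in K422, 94.2 to 129 in OCI-Ly10 and 130 to 196 in TMD8 (log2 fold change 0.51, SE 0.09, adjusted p = 5.13e-05 and 0.0767).

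To show the letters that FOXO factors are known to bind, the RefSeq promoter windows (GRCh38.p14) were searched on both strands, from base -250 to base -1 before the start of transcription, for GTAAACA. These letters stood in 6 of the 30 members of the FOXO list with a window (20%). They stood in 2.98% of all 35116 windows and in 2.94% of the tested genes with a window. Among NF-κB targets they stood in 4 of 35 (11.4%). Genes described here with a match, in capitals, and 20 bases on either side of it are as follows. SLAMF6 and LTB are not members of the FOXO list, and LTB is in that of NF-κB targets.
SLAMF6 (chr1:160523338-160523384, minus strand): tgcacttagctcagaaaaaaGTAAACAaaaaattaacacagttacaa
LTB (chr6:31582522-31582568, minus strand): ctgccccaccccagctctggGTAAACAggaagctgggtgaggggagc
BCL2L11 (chr2:111120671-111120717, plus strand): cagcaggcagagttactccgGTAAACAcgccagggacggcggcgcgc
TSC22D3 (chrX:107717183-107717229, minus strand, reverse complement of the letters): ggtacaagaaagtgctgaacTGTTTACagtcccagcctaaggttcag

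The antiproliferative genes BTG1 and BTG2 and the transcriptional repressor HBP1 were the first members by p of a list of CDK inhibitors, D cyclins and quiescence genes, of which 9 of 21 were higher and 3 lower (median 0.14). BTG2 went from 124 to 223 CPM in HT, 94.3 to 348 in K422, 69.6 to 138 in OCI-Ly10 and 117 to 195 in TMD8, without overlap (1.11, SE 0.19, adjusted p = 4.72e-05 over 30 libraries and 0.0794 over 8). HBP1 had no overlap either, with 8.99 to 17.5, 7.86 to 36.6, 12.4 to 26.8 and 8.77 to 12.6 CPM (1.21, SE 0.26, adjusted p = 8.92e-06 and 0.0882). BTG1 was higher in all 4 pairs, by log2 ratios of 0.34 to 1.1. The list of p53 targets, which also holds BTG2, had 8 higher and 0 lower of 25 members. Among lysosome and autophagy genes 14 of 43 were higher (7 without K422) and 5 lower (1 without HT or K422), with NPC2 (log2 fold change 0.57), NBR1 (0.71) and CTSB (0.44) higher in every line.

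Genes of cytosolic ribosomal proteins, the structural proteins of both ribosomal subunits, were higher at 24 h in nearly all cases. Of 85 members 79 were higher and 1 lower in the 30-library fit (74 to 80 higher without any 1 line), and 74 were higher and 1 lower in all 4 pairs. The median log2 ratio was 0.11 in HT, 0.55 in K422, 0.54 in OCI-Ly10 and 0.54 in TMD8, with 75, 83, 82 and 83 members higher. RPL12 went from 1590 to 2130 CPM in HT, 1570 to 2750 in K422, 1950 to 3260 in OCI-Ly10 and 1560 to 2240 in TMD8, without overlap (0.62, SE 0.11, adjusted p = 1.31e-05 over 30 libraries and 0.0693 over 8). RPS9 (log2 fold change 0.57) and RPL13A (0.64) were higher in every line as well, by log2 ratios from 0.33 to 0.84. RSEM divides reads among similar sequences, so that values of these genes, which have many pseudogenes, are uncertain.

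On TPM, where these genes take part of a fixed total, the median of all genes shifted to -0.16 and that of the ribosomal protein genes was 0.23, or 0.38 above all genes. FOXO targets (0.41 above all genes) and interferon-stimulated genes (0.64) lay above all genes too. The medians of class II genes, CDK inhibitors, p53 targets, lysosome, apoptosis and homing genes were -0.04 to -0.18 on TPM, and relative to all genes 0.12, 0.09, 0.09, 0.05, 0.04 and -0.02. On log2(TPM + 1) limma called 1333 genes lower and 115 higher, and 7.94% of its calls were higher, against 100% in the 8-library edgeR fit and 54.0% in the 30-library fit.

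Messenger RNAs of ribosomal proteins are known to begin with a tract of pyrimidines through which mTORC1 controls their translation. The letters CTTTC were searched on the strand of the gene, from 15 bases before the RefSeq start to the 15 bases from it on. They stood in 32 of the 68 members with a window (47.1%), 4.41% of all windows and 6.05% of the tested genes with a window. From the RefSeq start as base 0, the letters begin at base 8 in RPL12, 2 in RPS9 and RPL10 and 0 in RPL36A. A match therefore need not be the tract at the start of the RNA. The first and others by p are shown with these letters in capitals.
RPL12 (chr9:127451392-127451421, minus strand): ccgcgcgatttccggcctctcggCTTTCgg
RPS9 (chr19:54200843-54200872, plus strand): gtggcgcttccgcgcctCTTTCtcagtgac
RPL10 (chrX:154398362-154398391, plus strand): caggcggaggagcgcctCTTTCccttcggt
RPL36A (chrX:101390996-101391025, plus strand): tttgcctcgcggtttCTTTCtttccgcgcc

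In contrast, genes needed to assemble ribosomes in the nucleolus were lower. Of 55 ribosome biogenesis genes 42 were lower and 1 higher (9 lower without K422 and 27 without HT), and 29 were lower in all 4 pairs, with a median of -0.35. TSR1, a factor of the small subunit, went from 167 to 118 CPM in HT, 185 to 94.7 in K422, 212 to 132 in OCI-Ly10 and 227 to 192 in TMD8 (-0.60, SE 0.12, adjusted p = 0.00013 over 30 libraries and 0.0851 over 8). CCDC86 (log2 fold change -0.63) and EBNA1BP2 (-0.49) had the same order of lines, with the largest difference in K422 and the smallest in TMD8. Of 59 Hallmark MYC targets V2, which share genes with this list, 46 were lower and 0 higher (9 lower without K422, median -0.32), among them PPAN, a factor of the large subunit, with -0.59 (SE 0.10, adjusted p = 0.00184 and 0.07). MYC itself went from 181 to 158 CPM in HT, 273 to 260 in K422, 213 to 219 in OCI-Ly10 and 151 to 168 in TMD8, that is -0.02 on the log2 scale (SE 0.09), and passed neither fit (adjusted p = 0.965 over 30 libraries and 0.916 over 8). MYC was slightly lower in the GCB lines and slightly higher in the ABC lines.

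MYC and related factors are known to bind CACGTG. These letters, which read the same on both strands, stood in the same bases before the start in 9 of 48 ribosome biogenesis genes (18.8%), 15 of 48 Hallmark MYC targets V2 (31.2%), 6.34% of all windows and 11.6% of the tested genes with a window. Examples from the genes described here, with the letters in capitals, are as follows.
HSPD1 (chr2:197500337-197500382, minus strand): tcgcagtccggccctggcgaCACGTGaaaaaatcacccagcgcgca
CCDC86 (chr11:60842068-60842112, plus strand): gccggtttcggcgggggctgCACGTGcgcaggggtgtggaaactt
EBNA1BP2 (chr1:43172782-43172820, minus strand): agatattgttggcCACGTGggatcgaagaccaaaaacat

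The lists of protein folding, glycolysis and amino acid supply had medians below 0 in every line. Of 37 chaperones in the 30-library fit 29 were lower and 0 higher (21 to 31 lower without any 1 line). HSPD1, the mitochondrial chaperonin HSP60, went from 1200 to 830 CPM in HT, 1360 to 758 in K422, 1370 to 821 in OCI-Ly10 and 1810 to 1490 in TMD8 (-0.60, SE 0.12, adjusted p = 2.39e-05 over 30 libraries and 0.0846 over 8). HSPA9 (-0.60), TCP1 (-0.55) and HSP90AA1 (-0.66) were lower in all lines too. Of 24 glycolysis genes 16 were lower and 1 higher, with line medians from -0.38 in K422 to -0.21 in HT. LDHA, which forms lactate, went from 1360 to 906 CPM in HT, 1790 to 929 in K422, 1890 to 1120 in OCI-Ly10 and 2420 to 1940 in TMD8 (-0.65, SE 0.12, adjusted p = 1.87e-05 and 0.0821), and ENO1 and PGAM1 had -0.48 and -0.47.

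Of 20 cytosolic aminoacyl-tRNA synthetases, which charge tRNAs, 16 were lower and 1 higher, and 15 were lower in all 4 pairs. GARS went from 233 to 168 CPM in HT, 252 to 192 in K422, 394 to 266 in OCI-Ly10 and 229 to 177 in TMD8, so that it was about equally lower in the lines (log2 ratios -0.57 to -0.37, adjusted p = 6.21e-05 over 30 libraries and 0.0823 over 8). YARS (-0.47) and VARS (-0.46) were alike. Of 27 ATF4 targets and amino acid transport genes 12 were lower (7 without K422) and 1 higher. They include ASNS, the asparagine synthetase (-0.57, adjusted p = 3.82e-05), and the transporters SLC7A1 (-0.58, adjusted p = 0.00133) and SLC1A5 (-0.66, adjusted p = 0.00546) in the 30-library fit, and the 8-library fit gave 0.0841 to 0.0846 for these. The transferrin receptor TFRC, which takes up iron, went from 394 to 258, 666 to 320, 819 to 585 and 624 to 495 CPM in HT, K422, OCI-Ly10 and TMD8 (-0.62, SE 0.13, adjusted p = 0.000403 and 0.0846).

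The synthesis of sterols and fatty acids was represented by 33 genes, of which 24 were lower and 2 higher (9 lower without K422). FASN, the fatty acid synthase, went from 584 to 445 CPM in HT, 1400 to 730 in K422, 629 to 461 in OCI-Ly10 and 563 to 381 in TMD8 (-0.58, SE 0.11, adjusted p = 0.000355 over 30 libraries and 0.0846 over 8). SREBF1, which encodes a transcription factor of lipid synthesis, had -0.76 and HSD17B7 -0.48, both lower in all lines. SCD, the stearoyl-CoA desaturase, was lower in every line, with log2 ratios of -0.63 in HT and -1.52 in K422 against -0.19 in OCI-Ly10 and -0.27 in TMD8 (adjusted p = 2.44e-05 over 30 libraries and 0.157 over 8).

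**Figure D2:**
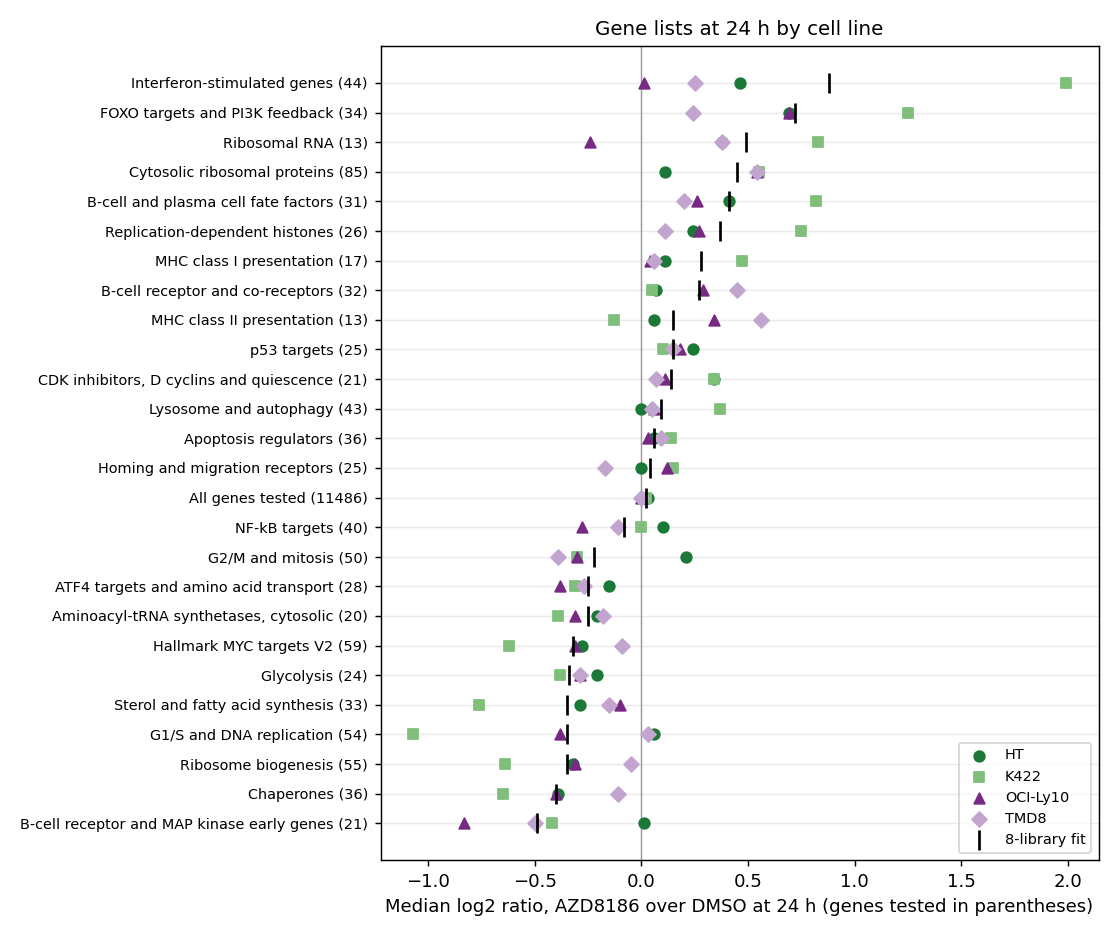
Median log2 ratio of AZD8186 over DMSO at 24 h for each gene list in the 4 cell lines (symbols) and in the 8-library fit (black bar), with the number of tested genes in parentheses. FOXO targets, B-cell fate factors and ribosomal proteins lie right of 0 and chaperones, ribosome biogenesis and glycolysis left of it in all 4 lines, while the interferon-stimulated genes range from 0.01 in OCI-Ly10 to 1.99 in K422.

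Genes induced early by the B-cell receptor and MAP kinases had medians below 0 at 24 h in 3 of the lines. Of 19 members 9 were lower and 0 higher in the 30-library fit (5 lower without K422 or OCI-Ly10), and the line medians over 21 members were 0.01 in HT, -0.42 in K422, -0.83 in OCI-Ly10 and -0.50 in TMD8. EGR2, a transcription factor induced by the receptor, went from 18.6 to 3.26 CPM in OCI-Ly10 and 6.80 to 1.71 in TMD8. It was near 0 in HT (0.161 and 0.0882) and in K422 (0.355 and 0.0526). DUSP2, a phosphatase of MAP kinases, went from 20.1 to 13.8 CPM in HT, 18.4 to 6.79 in K422, 166 to 55.3 in OCI-Ly10 and 114 to 69.9 in TMD8. Both were lower in the 30-library fit (adjusted p = 0.000774 for EGR2 and 0.00692 for DUSP2) and past the threshold over 8 libraries in neither case (0.0524 and 0.0814). ETV5, a factor downstream of ERK, was near 0 in HT (0.0535 and 0.0882 CPM) and had log2 ratios of -1.6 in K422, -1.29 in OCI-Ly10 and -2.15 in TMD8 (adjusted p = 0.00811 and 0.0631).

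NF-κB targets differed between lines at 24 h. Of 40 members 30 were lower in OCI-Ly10 and 26 in TMD8, against 14 in HT and 16 in K422, and the medians were -0.28, -0.11, 0.10 and 0.00. In the 30-library fit 9 of 39 were lower (5 without K422) and 5 higher (2 without HT and 8 without TMD8). Over all genes in that fit 14.5% were lower and 17.0% higher, so that these counts are not far from those shares. The cytokine genes TNF and LTA were lower, with TNF at 14.7 to 3.26 CPM in K422, 8.81 to 2.24 in OCI-Ly10, 20.3 to 6.18 in TMD8 and 0.589 to 0.441 in HT (-1.78, SE 0.25, adjusted p = 0.00247 over 30 libraries and 0.0589 over 8) and LTA at -1.26 (0.0167 and 0.0641). LTB, a partner of LTA in the membrane-bound lymphotoxin, was higher in each line, from 6.05 to 57.2 CPM in HT, 121 to 265 in K422, 13.3 to 48.7 in OCI-Ly10 and 13.1 to 61.4 in TMD8 (2.06, SE 0.31, adjusted p = 0.000252 and 0.0674). NFKBIA, which encodes the inhibitor IκBα, had log2 ratios of 0.77 in HT, 0.36 in K422, -0.40 in OCI-Ly10 and -0.07 in TMD8 and passed neither fit. NFKBIE, which encodes IκBε, had 0.00, -0.17, -0.74 and -0.64 and was lower in the 30-library fit (adjusted p = 0.013 and 0.151 over 8). CFLAR, an inhibitor of caspase-8, had log2 ratios of 0.23 in HT, 0.46 in K422, -0.45 in OCI-Ly10 and -0.38 in TMD8. CD274, which encodes PD-L1, went from 21.5 to 5.77 and 18.6 to 8.23 CPM in OCI-Ly10 and TMD8, with at most 0.214 CPM in the GCB lines. Neither passed a fit (CFLAR adjusted p = 0.899 and CD274 0.0794 over 8 libraries). JUNB had log2 ratios of 0.01 in HT, -0.36 in K422, -1.11 in OCI-Ly10 and -0.75 in TMD8. It was lower in the 30-library fit (adjusted p = 0.000174 and 0.138 over 8). In the same order JUN had 0.7, 0.57, -1.65 and -0.31 and JUND 0.9, 1.59, -0.52 and -0.4. JUN and JUND passed neither fit.

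The cell cycle lists differed between lines. Of 54 genes of the G1/S transition and DNA replication 34 were lower and 0 higher in the 30-library fit, but 4 were lower without K422 and 14 without OCI-Ly10. The median log2 ratio was -1.07 in K422 and -0.38 in OCI-Ly10, with 53 and 54 of the genes lower, and 0.06 in HT and 0.03 in TMD8, with 23 lower in each. CDC25A, a phosphatase that activates CDKs, went from 112 to 40.8 CPM in K422 and 63.8 to 40.4 in OCI-Ly10, and from 81.2 to 66.7 in HT and 69.9 to 56.7 in TMD8 (adjusted p = 0.000521 over 30 libraries and 0.123 over 8). The replication factor C subunits RFC5 and RFC3 had log2 fold changes of -0.49 and -0.34. Mitotic genes had another order of lines, with medians of 0.21 in HT, -0.30 in K422, -0.30 in OCI-Ly10 and -0.39 in TMD8, and 14 of 50 lower (26 without HT, 3 without K422 and 4 without OCI-Ly10). CCNA2, cyclin A2, went from 208 to 210 CPM in HT, 207 to 106 in K422, 138 to 87.1 in OCI-Ly10 and 146 to 104 in TMD8 (adjusted p = 0.000795 and 0.116), KIF23 had the same order of signs, and CKS1B was lower in all 4 lines (-0.38). In bulk RNA, fewer cells of a cell cycle phase and less RNA per cell cannot be told apart.

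Regulators of apoptosis were mixed, with 8 of 35 higher (4 without K422 and 5 without HT) and 4 lower. These counts are near the shares over all genes in the 30-library fit, 17.0% higher and 14.5% lower. Beside BCL2L11, which was described with the FOXO targets, BCL2 itself was higher in the lines that express it, from 85.4 to 245 CPM in K422, 221 to 346 in OCI-Ly10 and 98.6 to 137 in TMD8, with 0.375 and 0.441 CPM in HT (0.85, SE 0.20, adjusted p = 0.000356 over 30 libraries and 0.0909 over 8). BAK1, which encodes a pore-forming protein of mitochondria, was lower in all 4 pairs (-0.38, SE 0.09, adjusted p = 0.000711 and 0.0892).

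Homing and migration receptors had 4 higher and 4 lower of 25 members, near the shares over all genes (17.0% and 14.5%). PECAM1, an adhesion receptor, had the largest log2 fold change of the genes described here for the 4 lines, from 0.107 to 7.41 CPM in HT, 1.32 to 31.5 in K422, 0.914 to 5.98 in OCI-Ly10 and 0.431 to 2.09 in TMD8, so that all 4 AZD8186 libraries lay above the DMSO libraries (3.79, SE 0.51, adjusted p = 5.97e-07 over 30 libraries and 0.0589 over 8). The integrin genes ITGB2 and ITGA4 were lower. ITGB2 went from 50.7 to 31.9 CPM in HT, 444 to 229 in K422, 46.9 to 30.5 in OCI-Ly10 and 43.6 to 26.7 in TMD8 (-0.74, SE 0.09, adjusted p = 0.00022 and 0.0524), and ITGA4 had -0.53 with log2 ratios of -0.68 to -0.45.

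Interferon-stimulated genes were higher, above all in K422. Of 44 members 27 were higher and 0 lower in the 30-library fit, and 12 without K422. The median log2 ratio was 1.99 in K422, where all 44 were higher, 0.46 in HT, 0.25 in TMD8 and 0.01 in OCI-Ly10. OAS1, an antiviral enzyme, went from 2.84 to 14.9 CPM in HT, 65.9 to 274 in K422, 305 to 602 in OCI-Ly10 and 36.6 to 63.0 in TMD8, and was thus higher in each line (1.48, SE 0.27, adjusted p = 8.92e-06 over 30 libraries and 0.0846 over 8). STAT2, a transcription factor of the interferon response, went from 6.80 to 15.6, 17.4 to 50.9, 18.0 to 35.1 and 26.3 to 34.5 CPM (1.02, SE 0.18, adjusted p = 0.000425 and 0.0814). IFI27 was higher in K422 (11.9 to 29.7 CPM) and TMD8 (11.3 to 25.9) and under 1 CPM in HT and OCI-Ly10. Class I presentation genes, many of which respond to interferon, were higher in 7 of 17 (3 without K422) and lower in 2, with B2M at 0.34 (SE 0.10, adjusted p = 0.000208 and 0.114).

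The interferon-stimulated response element holds repeats of TTTC, and a pair of TTTC with any 2 bases between them was searched on both strands of the same bases before the start. It stood in 19 of 34 members with a window, 3.02% of all windows and 3.51% of the tested genes with a window. As 44 members were tested, the share describes those 34 genes and not the list. Matches of genes described here, and of IFI6, are in capitals.
IFI27 (chr14:94110608-94110657, plus strand): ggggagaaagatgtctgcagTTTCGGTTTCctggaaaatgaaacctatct
IFIT3 (chr10:89327821-89327870, plus strand): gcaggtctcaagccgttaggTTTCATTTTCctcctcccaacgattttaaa
ISG20 (chr15:88638927-88638976, plus strand, reverse complement of the letters): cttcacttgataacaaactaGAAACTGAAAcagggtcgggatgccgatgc
IFI6 (chr1:27672256-27672305, minus strand, reverse complement of the letters): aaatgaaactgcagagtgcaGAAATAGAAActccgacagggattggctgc

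Replication-dependent histones had 5 higher (1 without K422 and 3 without OCI-Ly10) and 0 lower of 21 members and ribosomal RNA genes 0 of 12 in either direction (3 higher without OCI-Ly10). Of histones, HIST1H1C went from 2.84 to 3.62 CPM in HT, 4.16 to 13.7 in K422, 19.6 to 37.8 in OCI-Ly10 and 404 to 520 in TMD8 (adjusted p = 0.000249 over 30 libraries and 0.11 over 8). The 13 mitochondrially encoded genes were not found by symbol in the deposited counts and were therefore not analysed.

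The response at 24 h was then compared between the GCB and the ABC lines by an interaction term in the 8 libraries. It differed in 26 of 11486 genes, with 22 more positive in the GCB lines (0.192%) and 4 more negative (0.0348%). Several of the named genes started from a low level in the GCB lines. RASSF6, a member of the RAS association domain family, went from 1.07 to 11.2 CPM in HT and 2.33 to 43.9 in K422 against 52.5 to 96.9 in OCI-Ly10 and 42.6 to 75.1 in TMD8 (difference 3.07, SE 0.28, adjusted p = 0.0046). TAGAP went from 0.268 to 1.41 and 6.49 to 71.8 CPM in HT and K422 against 118 to 176 and 7.90 to 10.9 (2.82, SE 0.27, adjusted p = 0.00618). ST14, a membrane serine protease, went from 0 to 1.15 and 0.0507 to 6.05 CPM against 177 to 351 and 16 to 39 (5.70, SE 0.57, adjusted p = 0.00618). These genes had positive log2 ratios in all 4 lines, and larger ones in the GCB lines.

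CXCR4, the receptor of the chemokine CXCL12, had the smallest p of the subtype differences, but its values rest on K422, where it went from 0.101 to 30.6 CPM, while HT had 0 and 0.0882, OCI-Ly10 188 and 256 and TMD8 56.9 and 65.1 CPM (7.75, SE 0.42, adjusted p = 0.000143). Of the interferon-stimulated genes, ISG20 was higher mainly in HT and K422, and IFIT3 mainly in K422, as it was at most 0.750 CPM in HT. IFIT3 went from 0.161 to 0.750 and 9.02 to 122 CPM in HT and K422 against 3.37 to 5.70 and 15.1 to 16.9 (3.23, SE 0.37, adjusted p = 0.0186). ISG20 went from 38.3 to 144 and 40.8 to 172 CPM against 75 to 95.3 and 24.3 to 37.9 (1.5, SE 0.20, adjusted p = 0.027). PIM2, a survival kinase, and FMNL3, a formin, were higher in the GCB lines and nearly level in the ABC lines, with log2 ratios of 1.33 and 1.67 against -0.10 and 0.05 for PIM2 (1.52, SE 0.20, adjusted p = 0.0272) and 1.66 and 1.72 against -0.09 and 0.24 for FMNL3 (1.62, SE 0.21, adjusted p = 0.027). KLHL6, a ubiquitin ligase adaptor of germinal center B cells, had opposite directions, with 28.7 to 36.2 and 30.0 to 37.2 CPM in HT and K422 and 57.3 to 23.0 and 6.27 to 1.95 in OCI-Ly10 and TMD8 (1.78, SE 0.24, adjusted p = 0.0272).

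MS4A1, which encodes CD20, was also opposite. It went from 26.5 to 13.5 CPM in HT and 145 to 59.6 in K422 but from 460 to 526 in OCI-Ly10 and 637 to 895 in TMD8 (difference -1.48, SE 0.21, adjusted p = 0.0339). SERPINA9, a protease inhibitor of germinal center B cells, went from 139 to 63.2 and 88.5 to 32.4 CPM in the GCB lines, was at 0 in OCI-Ly10 and went from 3.26 to 8.04 in TMD8 (-2.59, SE 0.31, adjusted p = 0.027). GNB3 and AFF2 were higher in the ABC lines from a low level. GNB3, a G protein β subunit, went from 2.60 to 23.8 CPM in OCI-Ly10 and 0.766 to 7.56 in TMD8 against 130 to 111 and 184 to 277 in HT and K422 (-3.04, SE 0.33, adjusted p = 0.0188), and AFF2 from 0.289 to 3.87 and 0.0958 to 0.808 against 104 to 134 and 104 to 172 (-2.99, SE 0.41, adjusted p = 0.0289). A copy of 28S ribosomal RNA, RNA28SN5, was called too, with 118 to 310 CPM in HT, 104 to 2.66 in TMD8 and 0 elsewhere (6.67, SE 0.33, adjusted p = 0.000616), but its reads are divided among near-identical copies and the value is uncertain.

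**Figure D3:**
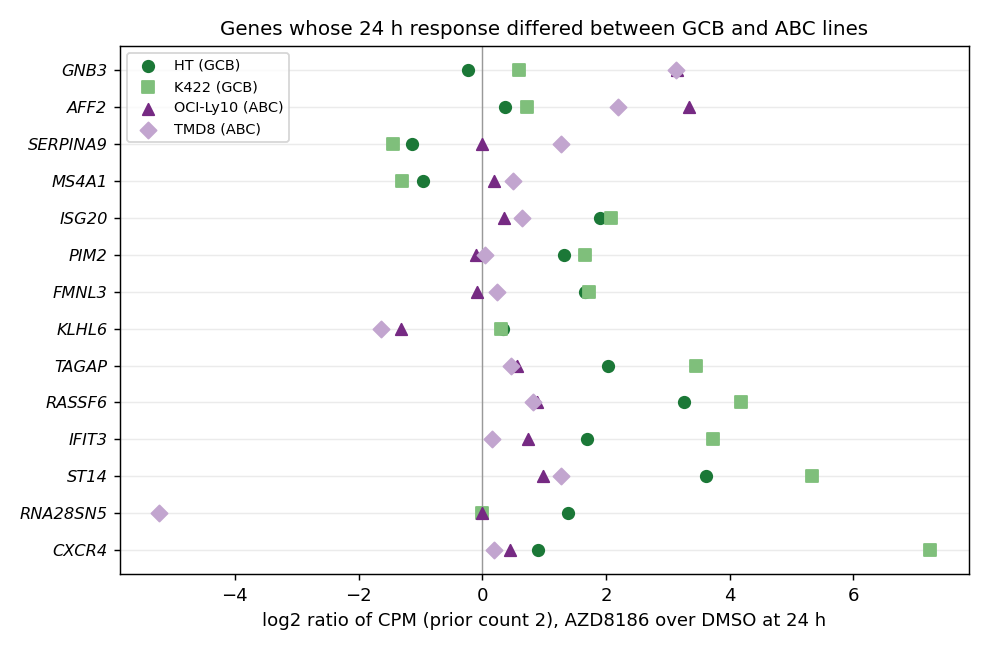
Log2 ratio of AZD8186 over DMSO at 24 h in each of the 4 cell lines (symbols) for the 14 named genes whose response differed between GCB and ABC lines. Green GCB symbols lie left of the purple ABC symbols for GNB3, AFF2, SERPINA9 and MS4A1 and right of them for the other genes apart from RNA28SN5, where K422 and OCI-Ly10 are both at 0.

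With 2 lines per subtype the difference cannot be told apart from a difference between single lines. Without HT 333 genes were more positive and 135 more negative, without K422 46 and 22, without OCI-Ly10 3 and 1, and without TMD8 2 and 0.

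The last comparison asked what the response at 24 h has that the response at 6 h has not. In the fit of all 30 libraries 213 genes (1.89% of 11286) had a more positive and 101 (0.895%) a more negative response at 24 h. Ribosomal protein genes made up 50 of the 213, of 85 tested. Their median log2 ratio at 6 h was 0.07 in HT, 0.05 in K422, -0.01 in OCI-Ly10 and 0.13 in TMD8, against 0.11, 0.55, 0.55 and 0.54 at 24 h. Ribosome biogenesis genes, of which 0 of 55 were called in either direction, were lower at 6 h already, with medians of -0.23, -0.62, -0.12 and -0.60 in HT, K422, OCI-Ly10 and TMD8, and -0.32, -0.64, -0.31 and -0.05 at 24 h.

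Several named genes with a more positive response at 24 h had a mean near 0 at 6 h. TRAPPC6A had a mean log2 ratio of 0.09 ± 0.11 (SD, n = 4 lines) at 6 h and 1.22 ± 0.28 at 24 h (difference 1.12, SE 0.13, adjusted p = 0.000995). NOP53, a nucleolar factor that is counted in neither ribosomal list, had 0.08 ± 0.08 and 0.85 ± 0.30 (0.77, SE 0.10, adjusted p = 0.00371). In both the lowest line at 24 h lay above the highest line at 6 h. The same held for CD52, the antigen of alemtuzumab, with -0.23 to 0.47 at 6 h and 0.75 to 2.63 at 24 h (1.04, SE 0.12, adjusted p = 0.000995), for UCP2, a mitochondrial carrier, with -0.27 to 0.37 and 0.38 to 1.31 (0.81, SE 0.11, adjusted p = 0.00371), and for TCL1B, with -0.32 to 0.56 and 1.15 to 1.97 (1.45, SE 0.20, adjusted p = 0.00515). These genes were named for the smallest p of this same difference, so that the separation of the times follows in part from that choice. Its share over all genes was not counted. At 24 h TCL1B was at most 0.316 CPM in the GCB lines and CD52 at most 0.856 CPM in TMD8. CD37 had 0.36 ± 0.22 and 1.05 ± 0.25 (0.69, SE 0.10, adjusted p = 0.00515).

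TNFRSF13C, which encodes the BAFF receptor, went from 7.55 to 13.9 CPM in HT, 12.1 to 24.9 in K422, 8.08 to 27.6 in OCI-Ly10 and 1.68 to 4.71 in TMD8 at 24 h, and its mean log2 ratio was 0.28 ± 0.53 at 6 h and 1.27 ± 0.40 at 24 h (1.01, SE 0.14, adjusted p = 0.00515). TAS1R3, a taste receptor subunit, had the smallest p, with 0.45 ± 1.02 and 1.92 ± 0.77 (1.68, SE 0.16, adjusted p = 0.000179), and its ratios at 6 h ran from -0.40 to 1.93. Its highest ratio at either time was that of TMD8, where it was at most 0.821 CPM at 6 h and 0.713 CPM at 24 h. In HT it went from 1.07 to 3.22 CPM at 24 h. PTPRCAP, a partner of CD45, was lower at 6 h in every line (-0.82 to -0.29) and had 0.24 ± 0.36 at 24 h (0.70, SE 0.10, adjusted p = 0.0047). MTURN had 0.13 ± 0.57 and 0.96 ± 0.81 (0.89, SE 0.13, adjusted p = 0.00515). Of the list of B-cell receptor and co-receptors 7 of 31 were more positive at 24 h and 0 more negative. Of the NF-κB targets 5 of 39 were more positive and 0 more negative. Over these 39 the median in TMD8 was -1.2 at 6 h, with 36 lower, and -0.16 at 24 h. In HT, K422 and OCI-Ly10 it was 0.0, -0.17 and -0.37 at 6 h and 0.08, 0.0 and -0.27 at 24 h.

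A more negative response at 24 h was called for 7 of 24 glycolysis genes, 6 of 50 mitotic genes, 5 of 37 chaperones and 4 of 54 G1/S genes. PGK1, GPI and PKM, which are enzymes of glycolysis, were at 0.06 ± 0.12, 0.07 ± 0.04 and 0.04 ± 0.11 at 6 h and at -0.37 ± 0.17, -0.55 ± 0.31 and -0.48 ± 0.22 at 24 h (differences -0.43, -0.62 and -0.52, adjusted p = 0.0114, 0.0148 and 0.0115). For each of these the highest line at 24 h lay below the lowest line at 6 h. They too were named for their p in this difference, and the share of such a separation over all genes was not counted. ASNS had -0.01 ± 0.06 and -0.57 ± 0.25 (-0.56, SE 0.09, adjusted p = 0.0107), and HSPD1 -0.10 ± 0.09 and -0.60 ± 0.25 (-0.50, SE 0.09, adjusted p = 0.0154). AIFM2, which encodes the ferroptosis suppressor FSP1, had -0.06 ± 0.10 and -0.60 ± 0.24 (-0.54, SE 0.09, adjusted p = 0.0112). GALM, a galactose mutarotase, had 0.19 ± 0.34 and -0.68 ± 0.29 (-0.93, SE 0.14, adjusted p = 0.00608). The membrane-binding annexin gene ANXA6 and the helicase gene DHX9 had differences of -0.52 and -0.49 (adjusted p = 0.0148 and 0.0152). IL2RB, a subunit of the interleukin-2 receptor, was at 0 to 0.0526 CPM in the GCB lines at 24 h and went from 67.7 to 10.5 CPM in OCI-Ly10 and 24.2 to 7.51 in TMD8 (-1.34, SE 0.22, adjusted p = 0.0122).

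**Figure D4:**
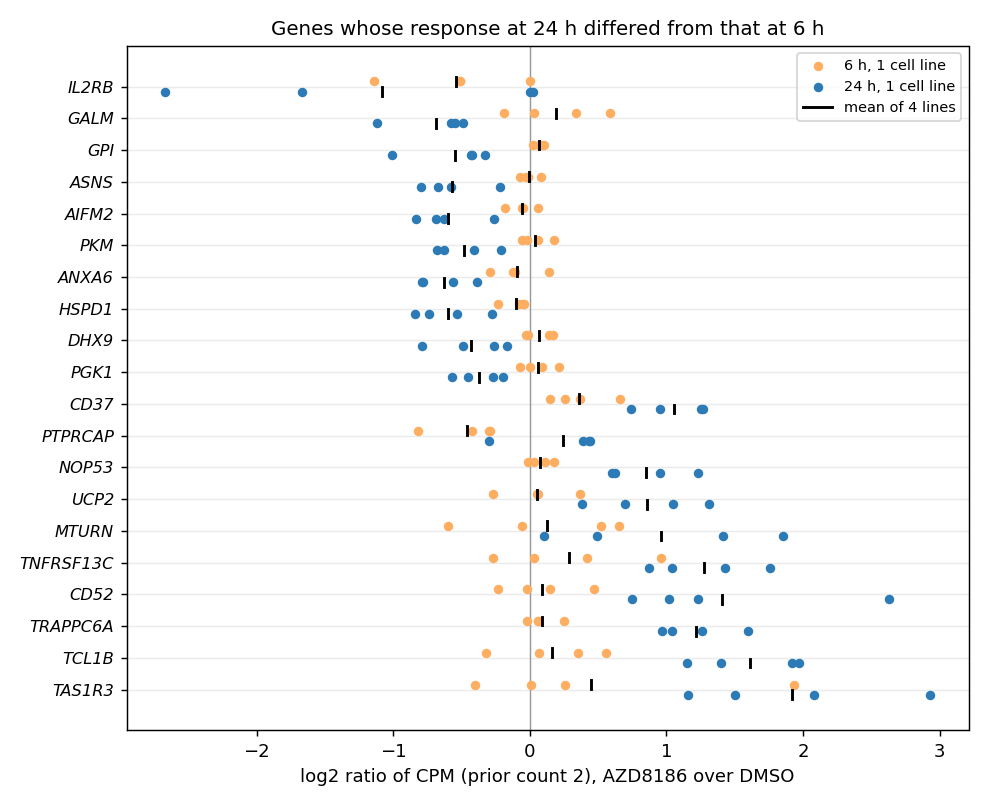
Log2 ratio of AZD8186 over DMSO at 6 h (orange) and at 24 h (blue) for the 20 named genes whose response differed between these times, with 1 point per cell line and a bar at the mean of the 4 lines. Genes from IL2RB to PGK1 move left and those from CD37 to TAS1R3 right from 6 to 24 h.

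Between these times the lists took different courses in the lines. Interferon-stimulated genes in K422 had medians of 0.10 at 6 h, 0.38 at 12 h, 1.06 at 18 h and 1.99 at 24 h, and in TMD8 0.05 at 6 h, 0.86 at 18 h and 0.24 at 24 h. G1/S genes in K422 had 0.01, -0.29, -0.80 and -1.07. FOXO targets had medians above 0 at every time in every line, from 0.38 at 6 h to 0.69 at 24 h in HT, 0.77 to 1.25 in K422 and 0.29 to 0.70 in OCI-Ly10, and from 0.64 to 0.24 in TMD8. TMD8 had no 12 h libraries, and each value is 1 pair, so that a course within a line was not tested.

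**Figure D5:**
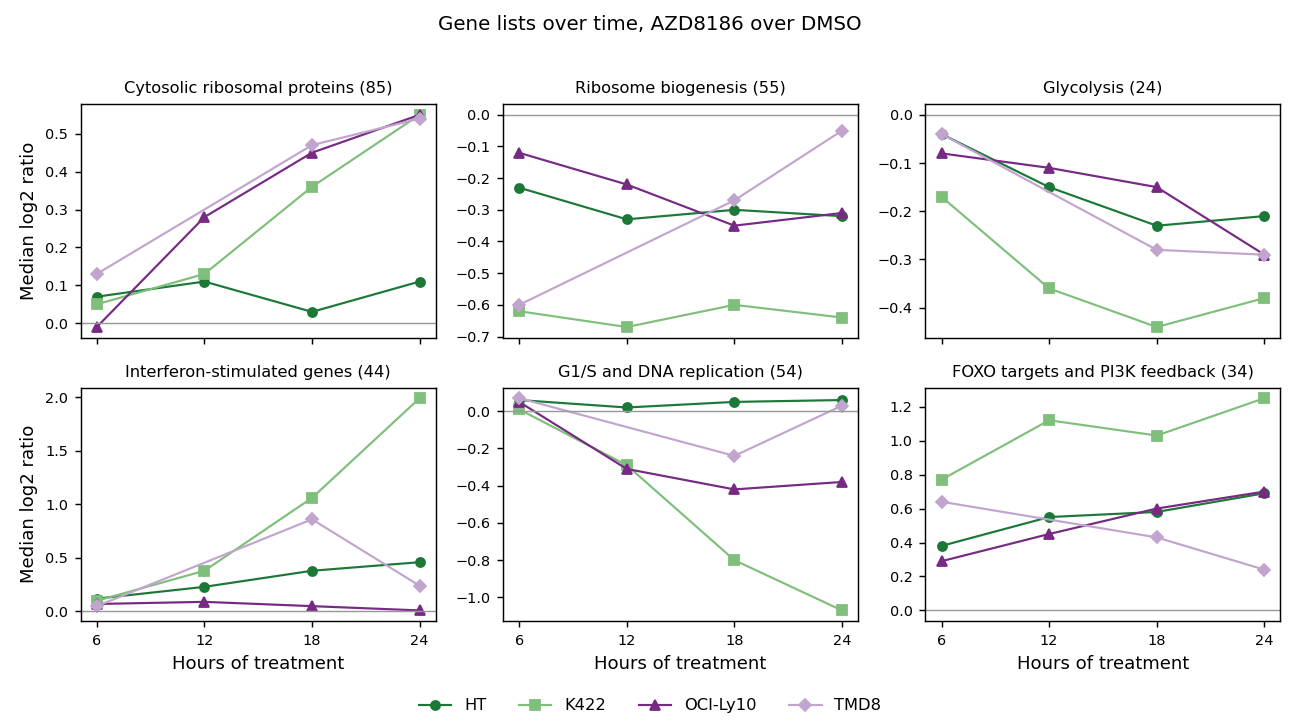
Median log2 ratio of AZD8186 over DMSO for 6 gene lists (tested genes in parentheses) against hours of treatment in the 4 cell lines. Ribosomal proteins rise from near 0 to about 0.55 in 3 lines and stay near 0.1 in HT, and glycolysis genes decline to between -0.38 and -0.21 at 24 h.

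The difference between 24 and 6 h rested on the pooled spread of all times. With only the 16 libraries of 6 and 24 h 1 gene was more positive and 0 more negative (1242 with an unadjusted p under 0.05). Without OCI-Ly10 0 genes were called in either direction (1721 with an unadjusted p under 0.05), without K422 13 and 3, without HT 188 and 124, and without TMD8 286 and 237.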

How the data were processed

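RNA of the cell lines, isolated with the NucleoSpin RNA Plus kit, was sequenced on the Illumina platform. According to the methods and the submitters' processing notes, reads were aligned with HISAT2 and summed per gene by RSEM on GRCh38.p12 with RefSeq transcripts. For these tools the version is not given in the sources used here. As to units, the expected counts deposited by the authors are RSEM's estimates without normalization, for 21112 genes. The TPM deposited by the authors are scaled to effective length and library total. The FPKM deposited by the authors were not used here.

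Expected counts were rounded, filtered by filterByExpr by treatment, normalized by TMM and tested by edgeR 4.0.16 (R 4.3.3) with glmQLFTest. Fits were cell line plus treatment, treatment by subtype, and, over 30 libraries, pairs with treatment by line and by time. Libraries were paired because the labels give them the same cell line and hour. Calls are at an adjusted p under 0.05 (Benjamini and Hochberg). Log2 ratios per pair use log2 CPM with a prior count of 2, and medians over lists are of these or of fitted log2 fold changes. The SE is the fold change divided by the root of F. Gene positions are from GENCODE release 29. Promoter windows were matched by symbol or RefSeq synonym for 9311 of 11486 tested genes. A gene was counted as holding the letters if any of its windows did, whereas shares of all windows count each window.

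The members and lists were chosen with earlier results of these data known. Named genes are, per direction, up to 12 calls of the 24 h comparison by size of change (mean of at least 5 CPM, 1 sign in all pairs), up to 10 calls by p of either difference, the first 3 of each list by p, and genes that the paper names. Of those, the text gives a part. Genes that the paper names and the text leaves out include IRF4, BCL2L1, IL10 and TNFAIP3. IFI6, RPL10 and RPL36A follow next by p in their lists and were chosen for their matches, and CD3D, CD3G, DCN and LMO2 were named after their values were seen. Copies of ribosomal RNA genes share reads and are not described, apart from 1 called copy. Alternatives were DESeq2 1.42.0 and its size factors, limma 3.58.1 (voom, log2(TPM + 1), log2(TPM + 0.1)), other filters (none, at least 5 CPM in 4 libraries), leaving out ribosomal and histone genes, no block, and each line left out. The fits of all libraries without each line were chosen after seeing the data. The fits were tested on simulated data. There 18 of 167 calls were false in the 24 h fit of 8 libraries and 9 of 84 in the subtype fit. In the fit of 24 h against 6 h 11 of 170 were false, and in the 30-library fit 10 of 172. Of genes changed 1.5-fold, 37.7%, 1.43%, 55.9% and 57.8% were recovered in the same order. Each simulated library was drawn independently, and no line was given a response of its own. These rates therefore do not cover lines that respond differently or times of the same line that vary together. Tables and figures were made with matplotlib 3.10.9, numpy 2.4.6 and pandas 2.3.3 in Python 3.11.15.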

Additional observations from a re-analysis of the deposited data

Results flagged for a closer look

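Among 4 log2 ratios per gene, 1 line stood far from the other lines in 3 of 77 named genes, where chance gives about 1 in 20. CD79B in HT was at 0.88 (other lines 1.23 to 1.25), CKS1B in K422 at -0.70 and TRIB3, a pseudokinase of the stress response, in K422 at -0.88.

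The 24 h response differed between GCB and ABC lines by the interaction test in CXCR4 (7.75), RNA28SN5 (6.67), ST14 (5.70), IFIT3 (3.23), RASSF6 (3.07), TAGAP (2.82), KLHL6 (1.78), FMNL3 (1.62), PIM2 (1.52) and ISG20 (1.5), which were more positive in the GCB lines on the log2 scale. It was more negative in GNB3 (-3.04), AFF2 (-2.99), SERPINA9 (-2.59) and MS4A1 (-1.48).

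By the test of 24 h against 6 h the response was more positive at 24 h in TAS1R3 (1.68), TCL1B (1.45), TRAPPC6A (1.12), CD52 (1.04), TNFRSF13C (1.01), MTURN (0.89), UCP2 (0.81), NOP53 (0.77), PTPRCAP (0.70) and CD37 (0.69). It was more negative in IL2RB (-1.34), GALM (-0.93), GPI (-0.62), ASNS (-0.56), AIFM2 (-0.54), PKM (-0.52), ANXA6 (-0.52), HSPD1 (-0.50), DHX9 (-0.49) and PGK1 (-0.43).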

How the results depend on the processing

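The count of genes called at 24 h, 0 lower and 8 higher, became 374 and 557 by DESeq2, 19 and 64 by limma-voom, 1382 and 121 on log2(TPM + 0.1), 1333 and 115 on log2(TPM + 1), 58 and 152 with no filter on low counts, 0 and 0 with no replicate block (95 with an unadjusted p under 0.05) and 1638 and 1922 with all 30 libraries. The fit of all libraries apart from HT gave 1276 and 1493, apart from K422 543 and 863, apart from OCI-Ly10 1139 and 1322 and apart from TMD8 2157 and 2190. Leaving 1 line out of the 8 libraries gave 0 to 17 lower and 0 to 51 higher, with 0 and 2 without HT, 17 and 51 without K422, and 0 and 0 without OCI-Ly10 or TMD8. The 8 genes were called by DESeq2, limma-voom, log2(TPM + 0.1), all 30 libraries and no filter too, 7 of them by log2(TPM + 1) and 0 with no replicate block.

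The subtype difference, 4 lower and 22 higher, became 27 and 60 by DESeq2, 0 and 6 by limma-voom, 0 and 0 on log2(TPM + 0.1), 0 and 1 on log2(TPM + 1), 32 and 101 with no filter, 0 and 0 with no replicate block (44 with an unadjusted p under 0.05), and 0 to 135 lower and 2 to 333 higher without 1 line. There the lone line of a subtype is assumed to vary like the lines of the other. The difference of 24 h and 6 h, 101 lower and 213 higher, became 215 and 252 by DESeq2, 192 and 340 by limma-voom, 1016 and 116 on log2(TPM + 0.1), 1096 and 128 on log2(TPM + 1), 58 and 185 with no filter, 0 and 1 with no replicate block, 0 and 1 with only the 16 libraries of 6 and 24 h, 67 and 121 without abundant RNA classes, and 0 to 237 lower and 0 to 286 higher without 1 line. The cause of these shifts was not tested.

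Of 1518 values of single genes under alternatives 1041 kept their direction and side of the threshold, 292 newly passed it, 177 no longer did and 8 changed sign. The last are NFKBIA with -0.06 on log2(TPM + 0.1) and -0.07 on log2(TPM + 1), which lie above the medians of all genes there (-0.19 and -0.16), -0.09 with no replicate block and -0.04 without HT, MYC with 0.04 without HT, CFLAR with 0.08 without OCI-Ly10 and 0.06 without TMD8, and AFF2 with 0.17 in the subtype difference on log2(TPM + 1). Leaving out 1 line in turn, NFKBIA ranged from -0.04 to 0.32 and CFLAR from -0.21 to 0.08. With 1 library per line, treatment and time, the spread of cultures is unknown.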
